A study of Mus musculus with 2 samples.

Results

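The Eph receptors, their ephrin ligands, the Slit ligands, their Robo receptors and the Srgap adaptors were followed as 32 genes in 7 classes: 9 EphA and 5 EphB receptors, 5 ephrin-A and 3 ephrin-B ligands, 3 Slit genes, 4 Robo genes and 3 Srgap genes. The members were listed by GENCODE mouse symbol and not by a threshold on their levels, though with earlier results of these data known. All 32 were found among the 43346 Ensembl genes of both gene tables. RNA came from the hindbrain, the embryonic brain region that gives rise to medulla, pons and cerebellum, at embryonic day 12.5 (e12.5). Embryos were of the mouse strain B6NCrl, untreated as far as the labels say and without a stated genetic change. Replicate 1 was a pool of 120 embryos and replicate 2 a pool of 88 embryos, each pool holding males and females. The pools form 1 group, so the data give levels with their spread between pools, and every test given below compares 2 libraries, not 2 conditions.

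Eph receptors are receptor tyrosine kinases that bind ephrins on neighbouring cells, and both partners can signal, most often to make cells or growth cones part. Ephrin-A ligands are held in the membrane by a lipid anchor and mainly bind EphA receptors, while ephrin-B ligands span the membrane and mainly bind EphB receptors, with EphA4 able to bind both kinds. In the embryonic hindbrain this system is known for keeping cells of neighbouring rhombomeres apart. Slit proteins are secreted, among other places, by the floor plate at the ventral midline, and Robo receptors on axons read them as a repellent. Robo3 is an unusual Robo: in mammals it lets commissural axons, and the migrating precerebellar neurons of the hindbrain, reach and cross the midline, and it binds Nell2 rather than Slit.

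Replicate 1 held 31633169 expected counts and replicate 2 held 29766460, and the members took 0.269% and 0.278% of them. Markers checked the label: the 6 hindbrain markers summed to 304 TPM (length-scaled transcript abundance on a fixed total per library) in replicate 1 and 355 in replicate 2, with Hoxa2 at 44.1 and 58.6 and Hoxb2 at 47.5 and 59.7. Of these 6 markers, Egr2 alone was under 1 TPM in a library. Markers of other tissue were present in both pools and at unequal levels. The 6 skeletal muscle markers summed to 49.4 TPM in replicate 1 and 226 in replicate 2. The 6 mesenchyme markers summed to 1356 and 1764, and the 5 epithelial and otic markers to 332 and 156. None of these markers was at 0 in either library. In bulk RNA, a lower level from fewer cells of a type cannot be told apart from less RNA per cell.

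Each library held all 32 members at no less than 1 TPM, against 63.0% of protein-coding genes. The members at 10 TPM in both libraries numbered 26, against 43.0% of protein-coding genes, and those at 50 TPM numbered 6, against 15.8%. The members' median was 28.3 TPM in replicate 1 and 29.6 in replicate 2. Protein-coding genes at 1 TPM or more in both libraries had medians of 21.3 and 21.7 TPM. Levels ran from Epha1, at a mean of 1.71 TPM, to Robo3, at a mean of 140.3 TPM. In the order of mean levels, 11 of the 31 neighbouring pairs had ranges that did not overlap between the genes and 20 overlapped. At the top, Robo3 stood apart from Efnb3 (ephrin-B3) and Efnb3 from Slit2, while Slit2 and Epha7 overlapped.

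**Figure D1:**
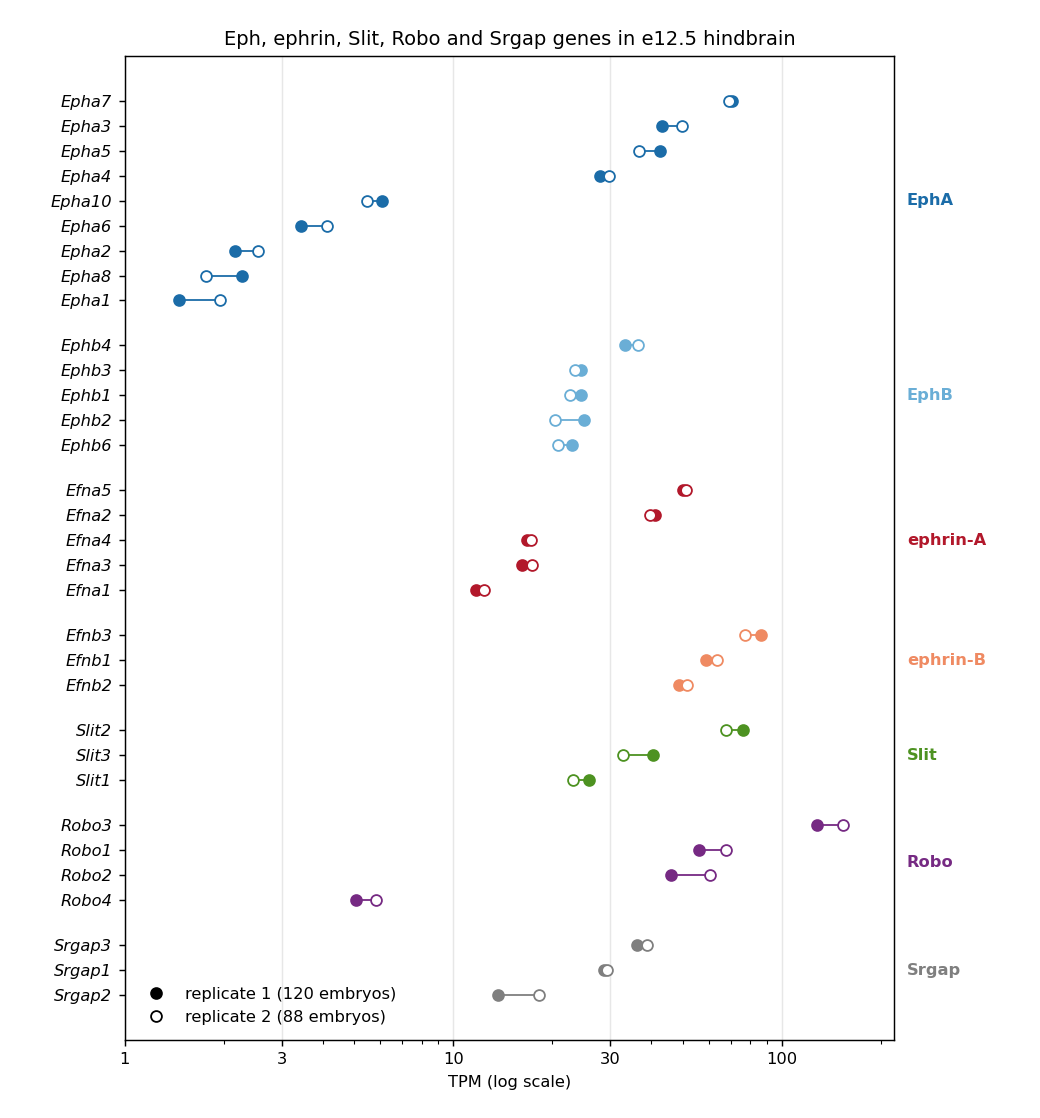
Level of each of the 32 genes in TPM (log axis) by class, with replicate 1 as filled and replicate 2 as open circles joined by a line. Robo3 stands to the right of all others at 128 and 153 TPM, the 5 EphB receptors lie together between 20.4 and 36.4 TPM, and the EphA receptors spread from 1.46 to 70.6 TPM.

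Before the values, the place where Robo3 transcripts part is shown. Robo3 (ENSMUSG00000032128, minus strand of chr9:37415669-37433246, mm10) is known in mouse in forms with different C termini, one of which keeps an intron near the end of the gene and carries a stop codon in it. In the annotation used here, that place is the intron between exons 26 and 27 of the 28 exons of Robo3-202, the leading transcript. It lies at chr9:37416921-37417325, is 405 nt long and is kept in Robo3-203 and Robo3-205. The lines below run 5′ to 3′ over the last 30 nt of exon 26 in lower case, followed in capitals by 60 nt of the kept intron in Robo3-205 (chr9:37417266-37417355, minus strand) or of exon 27 in Robo3-202 (from chr9:37416861 to the same end, minus strand, without the intron).
Robo3-205: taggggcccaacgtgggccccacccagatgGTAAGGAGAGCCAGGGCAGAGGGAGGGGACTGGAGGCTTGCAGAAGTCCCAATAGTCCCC
Robo3-202: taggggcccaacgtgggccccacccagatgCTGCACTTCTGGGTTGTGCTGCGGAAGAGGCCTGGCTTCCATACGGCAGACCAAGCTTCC
The annotated stop codon of Robo3-205 ends 131 nt into the kept intron, whereas 236 nt of coding sequence, stop codon included, follow exon 26 in Robo3-202.

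Among the Robo receptors, Robo3 was the highest. It had 128 TPM in replicate 1 and 153 TPM in replicate 2 (9782 and 10944 expected counts), a mean of 140.3 ± 17.9 TPM (SD, n = 2 libraries here and throughout). Robo3 gave 54.4% and 53.4% of the summed Robo level. Robo1 (chr16:72308306-73046095), a Slit receptor on axons after crossing and on migrating neurons, followed with 55.9 and 67.4 TPM (61.7 ± 8.12). Robo2 (chr16:73891839-74411825), also a Slit receptor, had 46.0 and 60.2 TPM (53.1 ± 10.1). All 3 of these Robo genes were lower in replicate 1 by TPM, a direction that turned for Robo1 and Robo3 when counts were scaled to the spike-in RNAs.

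Robo4, a Robo known from blood vessels, was low at 5.04 TPM in replicate 1 and 5.82 in replicate 2 (352 and 374 counts). It lies 553 nt from Robo3 on the other strand of chromosome 9. Endothelial markers were present beside it: all 8 were detected in both libraries and summed to 138 and 144 TPM, with Cdh5 at 13.2 and 16.7. The level of Robo4 within endothelial cells cannot be read from bulk RNA.

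The Robo3 intron was spliced in most of the Robo3 signal. The deposited share of the gene's TPM in each transcript (IsoPct, in percent) put 84.7% in replicate 1 and 83.6% in replicate 2 in the 3 transcripts that splice it. The 2 transcripts that keep it had 14.4% and 15.9%, a mean of 15.1 ± 1.06%, which was 18.4 and 24.3 TPM. By expected counts, the transcripts that keep it took 11.2% and 13.7% of Robo3. Which reads lie in the intron itself is not given in the deposited values. Unspliced RNA and a finished transcript that keeps the intron therefore cannot be told apart. The annotation also gives Robo3-202 83 nt more than the deposited table does, while the other 5 Robo3 transcripts have the same length in both.

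Robo3-202, with its complete coding sequence, led in both libraries with 62.7% and 61.5% of the gene. Robo3-206, annotated as a retained intron at another place, had 21.9% and 22.1%. Robo3-203 had 9.07% and 7.83%. Robo3-205, annotated as a target of nonsense-mediated decay, had 5.30% and 8.04%. The order of these transcripts was the same in the pools except that Robo3-203 and Robo3-205 changed places.

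Robo2 was the Robo gene whose leading transcript had no coding sequence. Robo2-209, annotated as a retained intron, held 31.0% and 33.3% of the gene. The complete coding transcripts Robo2-202 and Robo2-203 held 23.6% and 22.4%, and 15.6% and 16.3%. By expected counts, which are not divided by length, Robo2-209 held 26.6% and 28.5% and Robo2-202 30.1% and 28.4%. The lead of Robo2-209 thus turned with the unit in replicate 1, while in replicate 2 the 2 transcripts were nearly level by counts. Counting complete coding transcripts only, Robo2 was at 18.0 TPM in replicate 1 and 23.3 in replicate 2. Robo4-201 held 49.3% and 53.9% of Robo4, Robo4-203 25.3% and 24.0%, and Robo4-202 25.4% and 22.2%, all of them coding. Robo1 had a single transcript in the deposited tables, so its share of 100% is fixed by the annotation.

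**Figure D2:**
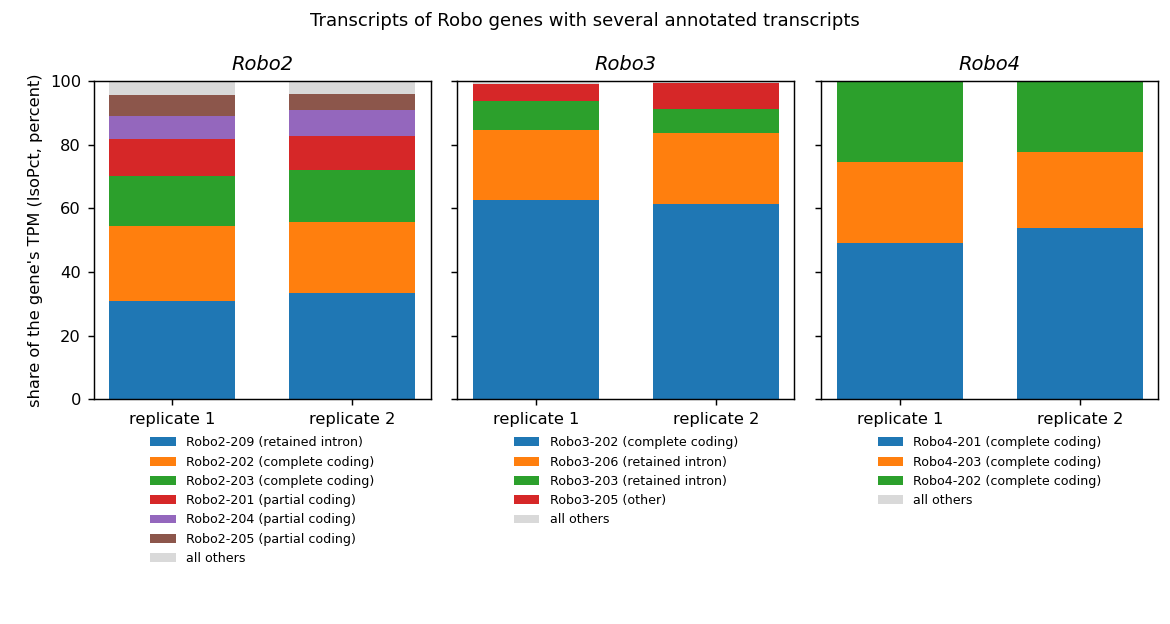
Share of each gene's TPM in its transcripts (percent) for Robo2, Robo3 and Robo4, with replicate 1 left of replicate 2 and transcripts with a mean share under 5% drawn together in light grey. Robo3-202 holds 62.7% and 61.5% of Robo3, and the retained-intron transcript Robo2-209 holds 31.0% and 33.3% of Robo2.

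Of the Slit ligands, Slit2 (chr5:47983138-48307733, plus strand) was the highest, with 75.9 TPM in replicate 1 and 67.4 in replicate 2 (71.7 ± 5.99). Slit3 had 40.7 and 32.9 TPM, and Slit1 had 25.9 and 23.1 TPM. All 3 Slit genes were higher in replicate 1. Scaling to the spike-in RNAs raised the log2 ratio of every gene by the same amount, so it could not turn this direction. The floor plate, a known source of Slits, was represented by 5 markers, all detected, which summed to 139 TPM in replicate 1 and 99.9 in replicate 2. Most of that sum was Spon1 (F-spondin), at 125 and 88.1 TPM, while Shh was at 4.86 and 3.96 TPM.

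Much of the Slit2 and Slit3 signal lay outside complete coding transcripts. The leading Slit2 transcript was the retained-intron transcript Slit2-207, with 37.6% and 37.7% of the gene, ahead of the coding Slit2-202, with 33.2% and 30.7%. By expected counts, which are not divided by length, Slit2-202 led with 53.9% and 50.5%, against 28.6% and 29.1% for Slit2-207. Slit3-202, a processed transcript of 1218 nt without a coding sequence, held 63.9% and 56.2% of Slit3. The coding Slit3-201, of 5228 nt, held 27.4% and 33.2%. By expected counts Slit3-201 instead held 65.3% and 71.9% of Slit3. Slit1 was coding almost throughout, with Slit1-201 at 53.6% and 56.3% and Slit1-203 at 46.4% and 39.3%.

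Summed over the classes, Robo genes reached 235 TPM in replicate 1 and 286 in replicate 2 (260.5 ± 36.6), and Slit genes 142 and 123 (133 ± 13.4). The log2 ratio of Robo over Slit was therefore 0.72 in replicate 1 and 1.21 in replicate 2, a fold of 1.65 and 2.32. This ratio had the largest spread of the 4 class ratios computed, with an SD of 0.35. With complete coding transcripts only, it was 1.29 and 1.68. By that count Robo genes reached 159 and 191 TPM, against 193 and 189.5 TPM for the ephrin-B genes, so Robo was the highest class over all transcripts but not in both libraries over complete coding ones.

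**Figure D3:**
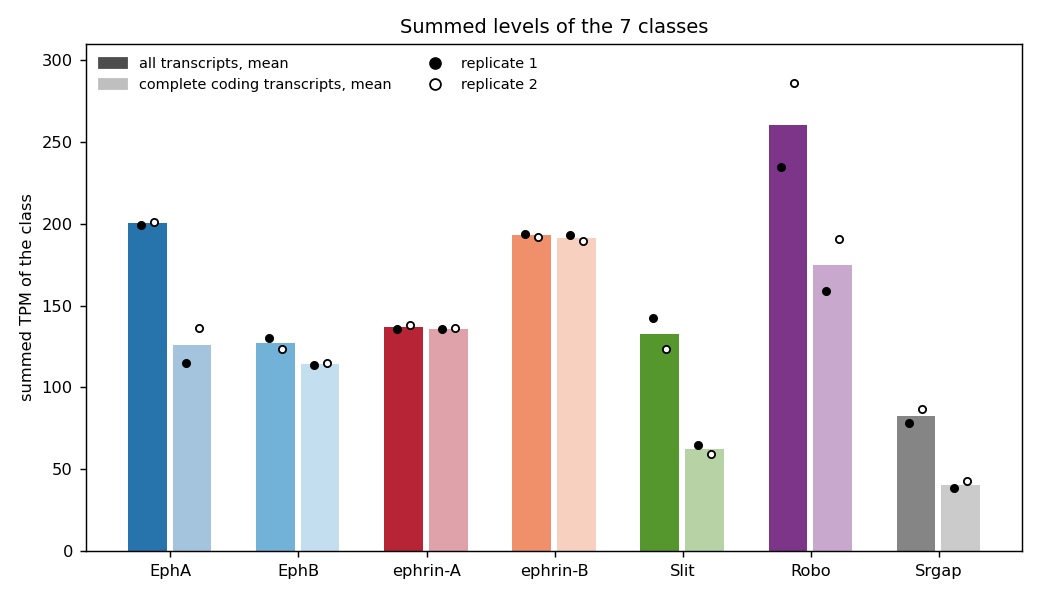
Summed TPM of the 7 classes. Dark bars are the mean over all transcripts and light bars the mean over complete coding transcripts, and filled and open circles are replicates 1 and 2. Robo is the highest class at 235 and 286 TPM, and Slit and Srgap lose the largest part when other transcripts are left out.

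The Srgap genes encode proteins that bind the inner tail of Robo receptors and shape the cell membrane. Srgap3 had 36.1 TPM in replicate 1 and 39.0 in replicate 2, Srgap1 28.7 and 29.4, and Srgap2 13.6 and 18.2. In Srgap1 the retained-intron transcript Srgap1-205, of 1457 nt, led with 66.3% and 70.6%, ahead of the coding Srgap1-201 with 28.2% and 23.5%. By expected counts the order turned, with Srgap1-201 at 64.2% and 56.3% and Srgap1-205 at 26.9% and 30.2%. In Srgap3 the coding transcripts Srgap3-202 (32.1% and 35.8%) and Srgap3-203 (23.4% and 22.5%) led. The class summed to 78.4 and 86.6 TPM, of which complete coding transcripts gave 38.4 and 42.5.

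The EphA receptors fell into a high and a low set. Epha7 (chr4:28813131-28967499, plus strand) was the highest Eph receptor, with 70.6 TPM in replicate 1 and 69.2 in replicate 2 (69.9 ± 1.02). Epha3 had 43.2 and 49.6 TPM and Epha5 42.4 and 36.7 TPM, both of them receptors for ephrin-A ligands. Epha4, a receptor known from rhombomeres 3 and 5 at earlier stages, had 27.9 and 29.8 TPM. These 4 genes were all above 10 TPM, and the other 5 EphA receptors were all below.

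Epha10, whose product is a receptor without kinase activity, had 6.08 and 5.47 TPM. Epha6 had 3.44 and 4.13 TPM and Epha8 2.28 and 1.77 TPM. Epha2, known from epithelia and vessels, had 2.17 and 2.55 TPM. Epha1, known from epithelia, was the lowest member, with 1.46 TPM from 88 counts in replicate 1 and 1.95 TPM from 109 counts in replicate 2. Exact Poisson intervals at 95%, which cover counting error only, ran from 1.17 to 1.80 and from 1.60 to 2.35 TPM for Epha1, so its values overlap within counting error. Exons of Epha1 overlap Zyx on the other strand over 6.01% of their length, and strandedness of the libraries is not stated, so this low level is uncertain.

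Epha7 is known in mouse as a full-length receptor and as shorter forms without the kinase domain, so the point where its coding transcripts part is shown. The lines below give the last 30 nt of the last shared exon in lower case and the coding nucleotides after it in capitals, 60 nt for Epha7-201 (chr4:28943349-28947587, plus strand, spliced) and, up to and including the stop codon, 35 nt for Epha7-202 (chr4:28943349-28946253, plus strand, spliced).
Epha7-201: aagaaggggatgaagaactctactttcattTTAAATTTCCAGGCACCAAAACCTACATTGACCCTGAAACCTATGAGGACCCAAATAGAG
Epha7-202: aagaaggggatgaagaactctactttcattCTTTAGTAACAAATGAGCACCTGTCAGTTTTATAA
Epha7-201 continues for 1199 nt of coding sequence after this exon, while Epha7-202 ends after 35 nt. The annotated coding sequences, without the stop codon, are 2994 and 1830 nt long.

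Both kinds of Epha7 transcript were measured. Epha7-201 held 33.1% of the gene in replicate 1 and 36.3% in replicate 2, which was 23.4 and 25.1 TPM. The short Epha7-202 held 11.8% and 13.6%, which was 8.34 and 9.39 TPM. The processed transcript Epha7-208, without a coding sequence, held 32.4% and 30.3%. The short coding transcript thus stood below the long one in both pools, with a difference larger than the spread between them.

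Other EphA genes also held several transcripts. Epha5 was led by the retained-intron transcript Epha5-207, with 46.9% and 42.8%, ahead of the coding Epha5-204 with 23.6% and 24.2% and Epha5-205 with 20.8% and 24.2%. By expected counts Epha5-204 led with 34.6% and 34.5%, against 29.2% and 25.9% for Epha5-207. The partial coding transcript Epha10-202 held 61.9% and 55.1% of Epha10, ahead of Epha10-201 with 26.9% and 26.2%. Epha4 changed most between the pools: Epha4-201, which is coding, held 28.5% in replicate 1 and 70.7% in replicate 2, while Epha4-205, annotated for nonsense-mediated decay, held 34.8% and 0.22%. The deposited posterior mean shares, another estimate from the same library, gave Epha4-201 30.4% and 45.5% and Epha4-205 31.0% and 23.1%, so this difference between the pools was much smaller by that estimate. These Epha4 transcripts have 6328 and 6315 nt and the same annotated coding length of 2958 nt.

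The EphB receptors lay close together. Ephb4, known from veins, had 33.4 TPM in replicate 1 and 36.4 in replicate 2. Ephb3 had 24.5 and 23.5 TPM, Ephb1 24.5 and 22.6 TPM and Ephb2 24.9 and 20.4 TPM, all of them ephrin-B receptors of developing axons. Ephb6, whose product lacks kinase activity, had 22.9 and 20.8 TPM. The ranges of neighbouring genes from Ephb3 down to Ephb6 overlapped, while Ephb3 lay wholly above Ephb6.

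Ephb1 was coding throughout, with Ephb1-201 at 66.9% and 73.1% and Ephb1-202 at 27.7% and 20.3%. A coding transcript of 5 exons, Ephb1-203, held 5.42% and 6.61%. In Ephb2 the coding Ephb2-201 and Ephb2-202 held 33.4% and 31.3%, and 31.7% and 37.7%. The retained-intron transcript Ephb2-204 held 33.6% and 26.04% of Ephb2 and led in replicate 1 by a margin of less than 1 percentage point.

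EphA receptors summed to 199.6 TPM in replicate 1 and 201.1 in replicate 2, and EphB receptors to 130.1 and 123.6. The log2 ratio of EphA over EphB was 0.62 and 0.70 (0.66 ± 0.06). It rested on transcripts that are not complete coding sequences, since with complete coding transcripts only the ratio was 0.01 and 0.25. The complete coding sums of EphA were 114.9 and 136.5 TPM, in which Epha4 had 9.05 and 21.04 TPM, so they carry the uncertain split of Epha4. It also rested on the 4 high EphA genes: the median EphA receptor had 6.08 and 5.47 TPM, below the median EphB receptor at 24.5 and 22.6 TPM.

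The ephrin-B ligands were all among the higher members. Efnb3 (chr11:69554092-69560205), the midline barrier ligand of corticospinal axons, had 86.7 TPM in replicate 1 and 77.3 in replicate 2 (82.0 ± 6.64). Efnb1 had 58.8 and 63.6 TPM. Efnb2, known from arteries and from neural tissue, had 48.5 and 51.3 TPM. Ephb4 and Efnb2 are both expressed in vessels and in other cells, and the endothelial markers given beside Robo4 apply to them too.

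The ephrin-A ligands covered a wider range. Efna5 had 49.98 and 51.15 TPM and Efna2 41.1 and 39.8 TPM, both known as graded guidance cues of the brain. Efna4 had 16.7 and 17.3 TPM, Efna3 16.2 and 17.3 TPM and Efna1 11.7 and 12.4 TPM. These 3 lower genes are neighbours on chromosome 3, between positions 89271733 and 89338028. Exons of Efna3 and Efna4 overlap antisense genes over 14.1% and 10.5% of their length, so their levels are uncertain without strand.

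Ephrin-A genes summed to 136 TPM in replicate 1 and 138 in replicate 2, and ephrin-B genes to 194 and 192. The log2 ratio of ephrin-A over ephrin-B was -0.52 and -0.48 (-0.50 ± 0.03), and it was nearly the same with complete coding transcripts only, at -0.51 and -0.48. Eph receptors together reached 329.7 and 324.7 TPM and ephrins together 329.7 and 330.1 TPM, a log2 ratio of 0.00 and -0.02. With complete coding transcripts only, the receptors summed to 229 and 251 TPM and the ephrins to 329 and 326 TPM, which gave a ratio of -0.52 and -0.37. The summed levels of receptors and ligands were thus alike over all transcripts, and the ligands were higher over complete coding ones. For Efna1, Efna2, Efna4, Efna5 and Efnb3 the tables hold complete coding transcripts only, so the annotation fixes their share. The same holds for the receptors Epha1, Epha3, Epha8 and Ephb1. How far the shift in the ratio follows the number of annotated transcripts was not tested.

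**Figure D4:**
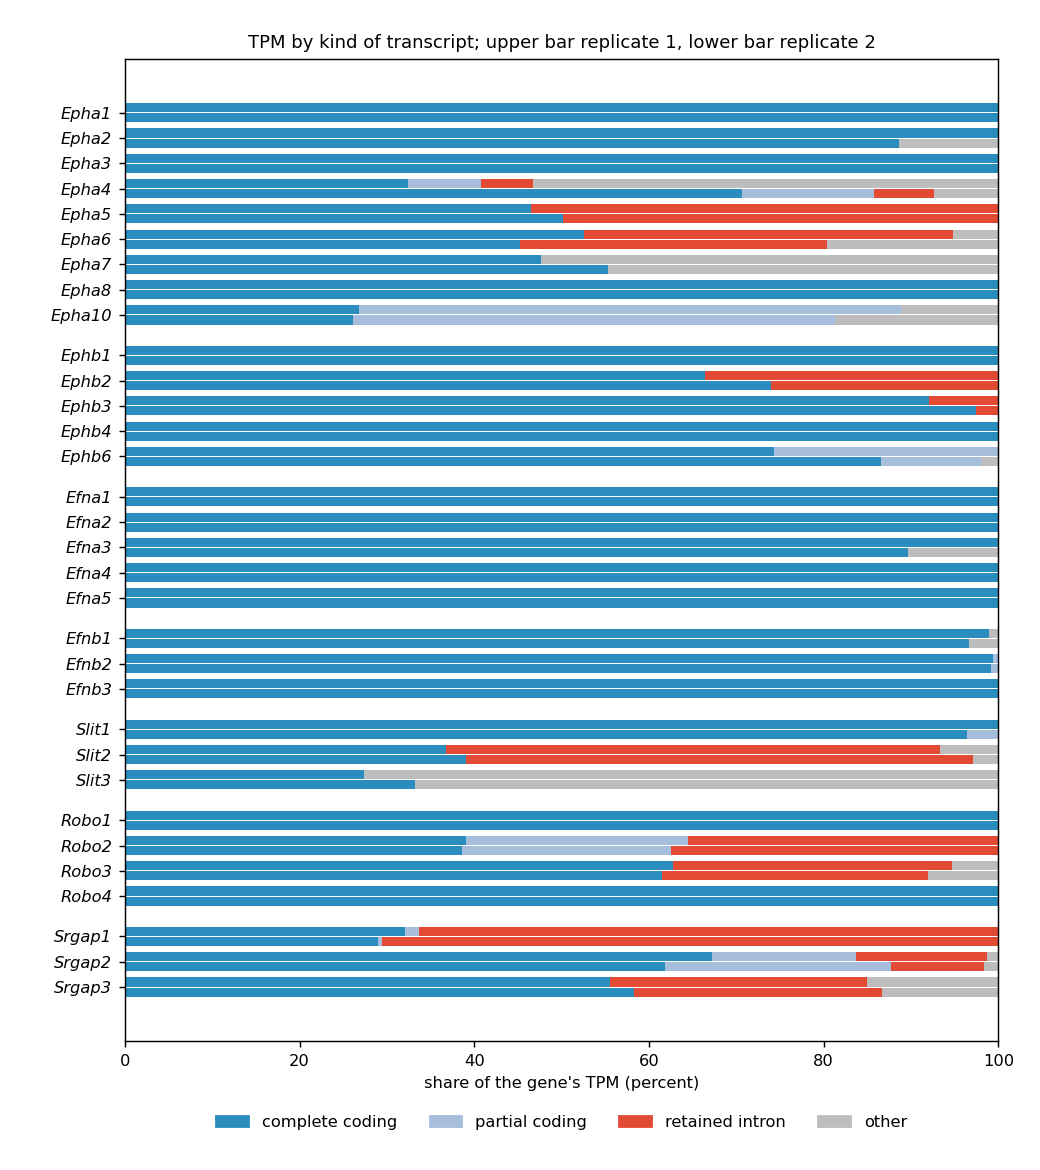
Share of each gene's TPM (percent) by kind of transcript in the annotation, with replicate 1 as the upper and replicate 2 as the lower bar of each gene. The ephrins are almost wholly complete coding, which the annotation fixes for Efna1, Efna2, Efna4, Efna5 and Efnb3. In Epha10, Slit2, Slit3, Robo2 and Srgap1 complete coding transcripts hold less than 50% of TPM in both libraries. By expected counts this is so for Epha10 only.

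Across the members, complete coding transcripts held a median of 99.2% of the gene's TPM in replicate 1 and 93.0% in replicate 2. Detected protein-coding genes had medians of 95.7% and 96.1%. In 5 of 32 members (15.6%) complete coding transcripts held less than 50% of TPM in both libraries, against 10.8% of detected protein-coding genes. By expected counts they held more than 50% of Slit2, Slit3, Robo2 and Srgap1 in both libraries. In Epha10 they held 18.5% and 19.6% by expected counts. Of 23 members at 5 TPM or more with several transcripts, 6 were led in both libraries, by share of TPM, by a transcript without a complete coding sequence (Epha5, Epha10, Slit2, Slit3, Robo2 and Srgap1). In replicate 1 alone Epha4 and Ephb2 were so too. By share of expected counts, 1 member was led by such a transcript in both libraries, Epha10, with Epha4 added in replicate 1 and Robo2 in replicate 2. The kind of transcript that led Epha5, Slit2, Slit3 and Srgap1 thus turned with the unit in both libraries.

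Partners of the pathways were measured as a background list. All 27 listed partners of Eph signalling were detected, with medians of 28.6 TPM in replicate 1 and 27.2 in replicate 2. The 5 highest were Grb10 (337 and 361 TPM), a receptor adaptor, Rhoa (270.1 and 273.7), the GTPase of growth cone collapse, Crk (111 and 111), an adaptor, Adam10 (72.1 and 80.5), a protease that cuts ephrins, and Itsn1 (63.4 and 65.4), an exchange factor downstream of EphB receptors. Of the 27, 5 were higher and 2 lower in replicate 1 by the binomial test described below, against 9.68% and 10.7% of all genes tested. By the edgeR exact test 1 was higher, against 0.625% of all genes tested, the adaptor Grb7, with 3.62 and 1.59 TPM (log2 ratio 1.21, adjusted p = 0.00279).

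All 33 listed Slit and Robo partners were detected too, with medians of 42.9 and 41.3 TPM. The 5 highest were Cdc42 (543 and 560 TPM) and Rac1 (254 and 274), GTPases acted on by Srgap proteins or their relatives, Ndfip1 (384 and 406), an adaptor of ubiquitin ligases that lowers Robo1 protein, Nell2 (94.5 and 96.6), the Robo3 ligand, and Pak1 (77.7 and 81.3), a kinase of the cytoskeleton. Nell2 thus lay above each Slit gene in both libraries. By the binomial test 3 of the 33 were higher and 8 lower in replicate 1, against 9.68% and 10.7% of all genes tested. By the edgeR exact test 0 were called, against 1.57%.

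Lastly the pools were compared, gene by gene, as the log2 ratio of replicate 1 over replicate 2 of scaled expected counts. The exact two-sided binomial test was used, which allows for counting noise alone, and its p-values were adjusted by Benjamini-Hochberg across the 19209 genes that entered it. It called 15 of 32 members, 8 higher and 7 lower in replicate 1, while 20.4% of all genes tested were called, 9.68% higher and 10.7% lower. Since well-counted genes are called more easily, the closer background is that of genes with 1000 or more summed counts, of which 28.8% were called, against 14 of 24 members with such counts. The edgeR exact test, which adds a spread between libraries (a coefficient of variation of 9.02% common to all genes), called 0 of 32 members, against 1.57% of all genes tested. That spread was estimated from these same 2 libraries taken as 1 group, so it includes the differences being tested. The 0 calls therefore do not show that the members were alike in the pools. Without adjustment, 1 member had an edgeR p under 0.05, which was Robo2.

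The Robo genes called were all lower in replicate 1 and the Slit genes all higher, with spike-in scaling turning the sign of Robo1 and Robo3. Robo3 had a log2 ratio of -0.26 (binomial adjusted p = 5.48e-37), Robo1 of -0.25 (8.75e-28) and Robo2 of -0.38 (3.44e-33). The unadjusted edgeR exact p of Robo2 was 0.042 and its adjusted p was 0.688. Robo4, at -0.19, was not called (binomial adjusted p = 0.229). The binomial adjusted p-values of the Slit genes stand beside their ratios, with Slit1 at 0.23 (2.02e-06), Slit2 at 0.21 (3.19e-12) and Slit3 at 0.18 (0.00453). No Slit gene and no Robo gene passed the edgeR exact test after adjustment.

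These directions are relative to the other genes of the library. Scaling by the ERCC spike-in RNAs instead moved the median of all genes by 0.37 on the log2 scale. Robo1 and Robo3 then stood at 0.11 and 0.11, with the sign turned, and Robo2 at -0.01, while Slit2 stood at 0.58. Under this scaling the binomial test called 27 of 32 members, 27 higher and 0 lower in replicate 1, against 66.0% and 1.7% of all genes tested. This scaling moves every gene by the same amount. Relative to the median of all genes, Robo1, Robo2 and Robo3 therefore stay at -0.26, -0.38 and -0.26 by arithmetic.

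Several marker lists differed between the pools beside the Slit and Robo values. Higher in replicate 1 were the floor plate sum given with the Slit genes, the epithelial and otic sum given above (3 of 5 markers higher by the edgeR exact test, against 0.625% of genes tested) and the sum of 4 erythroid markers, at 9896 TPM in replicate 1 and 7702 in replicate 2. Lower in replicate 1 were the muscle and mesenchyme sums, the hindbrain sum and the sum of 5 cartilage markers, at 507 and 568 TPM. The 6 hindbrain markers had a median log2 ratio of -0.27. By the binomial test 4 of them were lower and 1, Irx2, higher, against 10.7% and 9.68% of genes tested. By the edgeR exact test 0 of them were lower and 0 higher. The cartilage markers had a median log2 ratio of -0.48, with 2 lower by the edgeR exact test, against 0.942% of genes tested. The 6 muscle markers were all lower in replicate 1 by the edgeR exact test, against 0.942% of genes tested. By that test 0 of the mesenchyme, floor plate and erythroid markers were called in either direction, against 1.57% of genes tested. These directions are those of TPM and of TMM-scaled counts. The 5 commissural and dorsal interneuron markers (Atoh1, Barhl1, Barhl2, Lhx2 and Lhx9), of a lineage known to make Robo3, summed to 67.7 TPM in replicate 1 and 69.1 in replicate 2. The 6 neuron markers summed to 2353 and 2443 TPM and the 6 progenitor markers to 2744 and 2522. The part of other cell types in the difference between the pools was not tested.

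Other called members had small ratios by the binomial test. Epha3 (-0.18, adjusted p = 2.58e-08), Ephb4 (-0.11, 0.0306), Srgap3 (-0.16, 4.01e-05) and Srgap2 (-0.14, 0.0484) were lower in replicate 1, each with the sign turned by spike-in scaling. Epha5 (0.18, 1.01e-04), Epha10 (0.28, 0.0458), Ephb1 (0.12, 0.0468), Ephb2 (0.19, 5.65e-05) and Efnb3 (0.18, 6.31e-08) were higher. No ephrin-A gene was called. In TMM-scaled counts the widest fold between libraries over the 32 members was 1.33, at Epha1, which was not called (binomial adjusted p = 0.173).

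**Figure D5:**
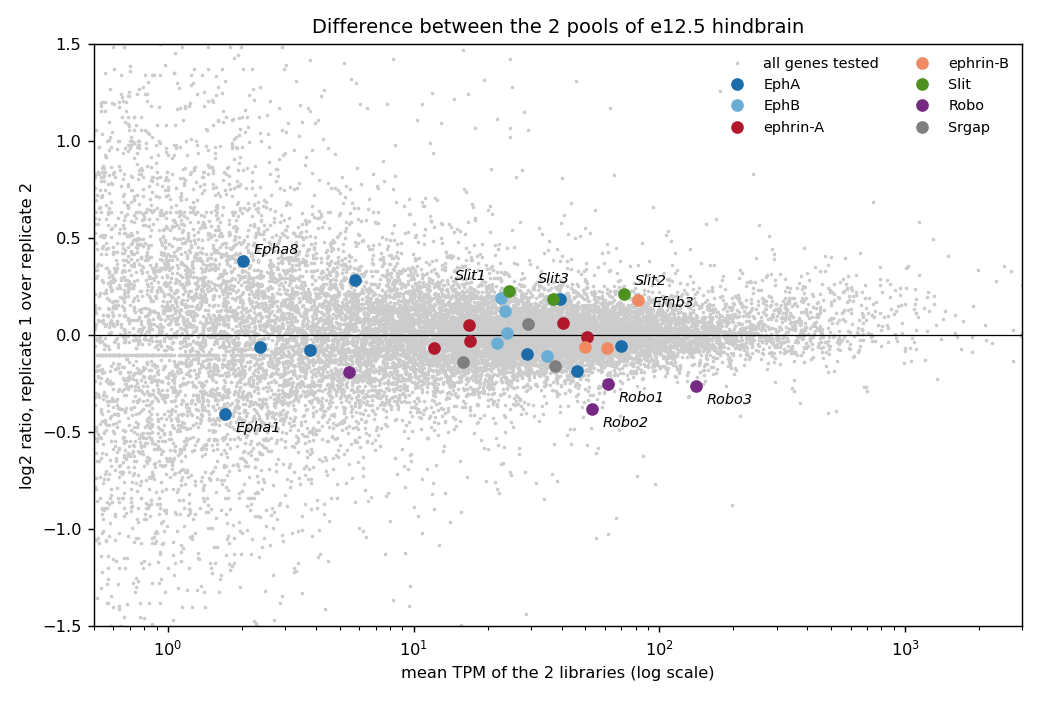
Log2 ratio of replicate 1 over replicate 2 against the mean TPM (log axis), with all genes tested in grey, drawn above 0.5 TPM and within the axes, and the members coloured by class. Robo1, Robo2 and Robo3 lie at -0.25, -0.38 and -0.26 (0.11, -0.01 and 0.11 with spike-in scaling), and Slit1, Slit2 and Slit3 lie at 0.23, 0.21 and 0.18.

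By TPM 13 members were higher and 19 lower in replicate 1. In 4 members, Epha7, Ephb6, Efna3 and Srgap1, the TPM and the scaled counts differed in direction, none of them called. TPM divides by a transcript length that depends on the split between transcripts. It is also scaled to a total that includes the spike-in RNAs, which took 8.39% of TPM in replicate 1 and 10.9% in replicate 2. What set the directions apart in these 4 members was not tested.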

How the data were processed

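Per the labels' protocols, mirVana extraction kept RNA above 200 nt, and 10 ng with ERCC spike-ins entered each library. The notes with the files name mm10 and GENCODE M4; no aligner or quantifier is given in the sources used here. The authors deposited expected counts (estimated fragments per gene or transcript, not whole numbers), TPM, FPKM and the percent of each gene in each transcript, per the file headers. Names, exons, transcript kinds and sequences were taken from GENCODE M21, on mm10 as well, which held 145 of the members' 146 transcripts, 121 of them with the same length. Complete coding means a protein-coding transcript annotated with both its start and its stop. Numbered entries that name no gene, with under 0.001% of the counts, stayed out.

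Expected counts were rounded, kept at 10 or more summed counts and scaled by TMM (edgeR 4.0.16, R 4.3.3). The exact binomial test (scipy 1.17.1) with a threshold of 0.05 was the main test and edgeR's exact test with its common dispersion the alternative. That dispersion came from the same 2 libraries taken as 1 group. Both were tested on simulated data with a dispersion of 0.008 for every gene. There edgeR recovered 7% of 1.5-fold and 72% of 2-fold changes over 18917 genes. The binomial test recovered 96% and 100% while calling 5624 unchanged genes. In the data it called fewer genes, 3921 of 19209, so the simulated spread differed from that of the data. The recovery rates hold for that setting only. The rounded counts of the libraries differed (chi-square over its degrees of freedom, 8.27), so they are not copies of each other. All members were named, with transcripts for Robo genes and for members at 5 TPM whose second transcript held 20% in both libraries; other transcripts named were chosen after their values were seen. Of the pathway lists, the 5 highest and any gene called by edgeR were named. Members and lists were chosen with earlier results of these data known. Separate pools are biological replicates per the labels. Counting intervals cover counting error only, since reads without molecular identifiers are not independent molecules.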

Additional observations from a re-analysis of the deposited data

How the results depend on the processing

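No paired analysis was possible because the 2 libraries form 1 group. The number of members called was 15 by the binomial test, 14 with DESeq2 size factors, 15 with totals over Ensembl genes, 12 without a filter on low counts, 0 by the edgeR exact test and 27 with ERCC scaling, where all 27 were higher in replicate 1 and 67.7% of all genes were called. With FPKM, a different scale, the class sums were 118.9 (EphA), 75.4 (EphB), 81.2 (ephrin-A), 114.6 (ephrin-B), 79.0 (Slit), 154.5 (Robo) and 49.0 (Srgap). With TPM rescaled over Ensembl genes, without spike-ins, they were 221.7, 140.4, 151.5, 213.6, 147.0 and 91.4 for EphA, EphB, ephrin-A, ephrin-B, Slit and Srgap. With the posterior mean TPM, EphA, ephrin-A and ephrin-B summed to 196.5, 133.6 and 187.7. With complete coding transcripts only, chosen after seeing the data, EphA, EphB, ephrin-B, Slit, Robo and Srgap summed to 125.7, 114.4, 191.3, 62.3, 174.8 and 40.4, and the mean log2 ratios were 0.13 for EphA over EphB, -0.45 for Eph receptors over ephrins and 1.48 for Robo over Slit. The ratio of EphA over EphB turned to -1.86 as a difference of median log2(TPM + 1), the other 2 ratios that moved being -1.79 for ephrin-A over ephrin-B and -0.93 for receptors over ephrins. Without the highest member of each class these ratios were 0.51, -0.36 and 0.054. The leading share of Robo2 was 27.6% and of Robo3 70.5% by expected counts, also chosen after seeing the data, and that of Robo4 was 47.3% by the posterior mean. Leaving out a library leaves the value of the other, so with 2 pools this is no check of stability, and the spread between pools is known poorly.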
